A study of Homo sapiens with 9 samples.

Results

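The antiviral interferon-stimulated genes are effector genes that cells switch on when interferon is sensed. Here they were 52 genes chosen by symbol (the IFI, IFIT, IFITM, OAS, MX and GBP families and others) among 19389 genes in the expression table of SW1353 cells, and all 52 were found. SW1353 is 1 human chondrosarcoma line, used as a stand-in for chondrocytes. Its RNA was read in 3 groups of 3 libraries, all from cells of the same line in serum-containing medium. In the first group PBSL, a preparation of Protaetia brevitarsis seulensis beetle larvae, was given for 2 h, followed by 20 h with interleukin-1β (IL-1β), a cytokine of joint inflammation, at 20 ng/mL. The second received the same IL-1β without PBSL, and the third was left untreated. The protocol lists PBSL at 50, 100 and 200 µg/mL, the concentration of the sequenced libraries is not stated, and cells given PBSL alone were not analysed here. The labels do not say if the 3 libraries of a group are separate cultures, and p-values here describe the spread between libraries only, which may be technical.

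Type I and type III interferons bind receptors at the cell surface and activate the kinases JAK1 and TYK2. These phosphorylate transcription factors, among them STAT2, which joins IRF9 in a complex that binds the interferon-stimulated response element (ISRE) in promoters. The genes switched on in this way encode proteins that recognise viral RNA, degrade it, block its translation, trap virions at membranes or tag proteins with ISG15. Many of them also answer to IRF1, and part of the programme can be induced by inflammatory cytokines through secreted interferon.

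The promoter sequences of these genes are shown first, since the ISRE is what many of them are known to share. A promoter from RefSeq (GRCh38.p14, 250 bases before to 50 after the annotated start) was matched for 43 of the 52 genes. The ISRE letters, GAAA and GAAA with any 2 bases between them, searched on both strands, occurred in 29 of these 43 promoters (67.4%), and in 996 of 27305 promoters of all genes (3.65%). A match is a run of letters and was not measured as a bound site. The lines below give the windows before the start for the 8 tested genes with the largest IL-1β change among those with a match there, and for IFITM3 and LGALS3BP, which in PBSL 2 and PBSL 3 lay at or below the highest untreated library. Bases run 5′ to 3′ on the gene's own strand, and capitals mark ISRE matches, including 1 cut by the window's edge in IFI6.
IFI27 (chr14:94110621-94110670, plus strand): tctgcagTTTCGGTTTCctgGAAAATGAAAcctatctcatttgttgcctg
BST2 (chr19:17405725-17405780, minus strand): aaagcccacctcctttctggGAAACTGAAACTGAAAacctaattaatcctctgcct
IFITM1 (chr11:313980-314029, plus strand): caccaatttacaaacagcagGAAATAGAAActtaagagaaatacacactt
IFI6 (chr1:27672256-27672305, minus strand): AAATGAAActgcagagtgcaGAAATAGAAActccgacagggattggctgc
ISG15 (chr1:1013364-1013419, plus strand): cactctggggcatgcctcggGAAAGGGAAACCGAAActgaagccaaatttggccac
IFI44 (chr1:78649751-78649788, plus strand): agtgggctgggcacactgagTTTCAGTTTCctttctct
OAS3 (chr12:112938311-112938360, plus strand): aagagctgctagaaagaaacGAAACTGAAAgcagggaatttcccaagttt
IFIT1 (chr10:89392500-89392549, plus strand): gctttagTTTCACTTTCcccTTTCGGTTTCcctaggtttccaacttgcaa
IFITM3 (chr11:320866-320915, minus strand): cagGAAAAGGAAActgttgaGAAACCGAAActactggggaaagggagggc
LGALS3BP (chr17:78979952-78980001, minus strand): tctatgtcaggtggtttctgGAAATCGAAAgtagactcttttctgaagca
BST2 and ISG15 carried overlapping matches that run into each other. IFI6 carried 3 separate ones in its searched promoter, and IFIT1, OAS3, IFITM1, IFITM3 and IFI27 carried 2 each, not all inside the windows shown. Among tested genes with a promoter, the 27 with an ISRE match had a median log2 change with IL-1β of 1.58 and the 14 without one had 1.20. With PBSL before IL-1β the medians were -0.59 in the 27 and -0.51 in the 14. These medians are descriptions and were not tested against each other. Both sets include genes that passed the filter given below through the groups in which they are high. These were BST2, MX1, IFI44L, ISG20 and RTP4 among the 27, and RSAD2, CMPK2 and XAF1 among the 14. The filter thus partly fixed the IL-1β medians.

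The deposited values are normalized for transcript length and depth, their read counts are unknown, and they summed to between 523758 and 553196 in a library. A gene was tested when it reached 1 in at least 3 libraries, which 50 of the 52 genes and 11924 of all did. EPSTI1, induced by interferon in many epithelial tissues, reached at most 0.102 in a library. GBP4, a guanylate-binding protein, reached at most 0.902 and lay at 0.609, 0.312 and 0.541 with PBSL and IL-1β, 0.728, 0.902 and 0.816 with IL-1β, and 0.063, 0.075 and 0.11 in untreated cells. Of the 50, 40 reached 1 in every untreated library, and 10 did not (OASL, MX1, MX2, BST2, RSAD2, CMPK2, IFI44L, ISG20, XAF1 and RTP4), so these 10 passed through the groups in which they are high. COL2A1, the collagen that defines cartilage, reached at most 0.027 in a library and COL9A1 at most 0.013, whereas SOX9, the chondrocyte transcription factor, lay between 8.003 and 12.8. Chondrocyte marker sums (8 genes, 4 tested) were 12.4 to 14.2 with PBSL and IL-1β, 13.7 to 15.1 with IL-1β and 18.5 to 20.4 in untreated cells. SOX9 made most of that sum. With IL-1β 3 of the 4 tested were called lower, and ACAN was called higher, by a log2 change of 0.69. HAPLN1, among those called lower, passed the filter through untreated cells alone, and ACAN through the stimulated groups alone. The filter thus partly fixed the direction of both. Macrophage marker sums (8 genes, 3 tested) moved with the groups in the order that most members also show, at 85.7 to 91.3 with PBSL and IL-1β, 100.1 to 103.9 with IL-1β and 73.0 to 80.3 in untreated cells. CD68, also a lysosomal gene of other cells, made most of that sum, and the other markers did not all keep its order. The means of CSF1R did. FCER1G had means of 1.79 with PBSL and IL-1β, 1.59 with IL-1β and 0.716 in untreated cells. The leukocyte gene PTPRC had its highest mean in untreated cells and reached at most 0.393 in any library. Sums of lymphocyte and plasmacytoid dendritic markers (6 genes, 1 tested) were 0.97 to 1.35 with PBSL and IL-1β, 0.61 to 1.08 with IL-1β and 1.117 to 1.325 in untreated cells, with CLEC4C and LILRA4 at most 0.116 and 0.02, and the T cell gene CD3E making most of the untreated sum and called lower with IL-1β. CD3E passed the filter through untreated cells alone, which partly fixed that call. NKG7, of cytotoxic lymphocytes, lay at 0.293, 0.546 and 0.209 with PBSL and IL-1β, 0.074, 0 and 0 with IL-1β, and 0 in all untreated libraries. Epithelial marker sums (5 genes, 2 tested) were 54.0 to 73.5 with PBSL and IL-1β, 72.7 to 73.9 with IL-1β and 137.0 to 149.5 in untreated cells, and no endothelial marker of 4 was tested. The part of the genes behind these sums in the results was not tested. In bulk RNA, fewer cells expressing a gene and less RNA per cell cannot be told apart.

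Values are given below for replicates 1, 2 and 3 of a group, in that order, on the authors' per-length scale. The library PBSL 1 lay nearer to the IL-1β libraries than PBSL 2 and PBSL 3 for most members. Log2 fold changes were fitted with limma after adding 1 to each value, with p-values adjusted over all 11924 genes, and a change was called at an adjusted p under 0.05. For the counts of the role groups below, the shares over all tested genes were 16.2% called higher with IL-1β and 11.0% called lower with PBSL. The comparison of PBSL plus IL-1β with IL-1β and the comparison of IL-1β with untreated cells share the 3 IL-1β libraries, and their values are set side by side as 2 descriptions of the same genes.

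IL-1β alone against untreated cells asked what the cytokine changed. The antiviral genes rose as a group. All 40 that reached 1 in every untreated library were called higher with IL-1β, where 16.2% of all tested genes were, and their median log2 change was 1.27, against -0.00491 over all tested genes. In all 40, every IL-1β library lay above every untreated library, as it did for 25.7% of all tested genes. The other 10 tested genes were called higher and separated too, which the filter partly fixed. The changes ran from 0.36 in TRIM21, a cytosolic antibody receptor, to 5.36 in IFI27, a small mitochondrial protein, and 31 of the 40 at least doubled on the scale with 1 added. All 50 were still called when each of the 9 libraries was left out in turn.

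PBSL before IL-1β against IL-1β alone asked what the pretreatment changed in stimulated cells. With PBSL most of these genes were lower than with IL-1β alone, and most stayed above untreated cells. Of the 40 genes at 1 or more in every untreated library, 34 were called lower, 0 higher and 6 were not called, where 11.0% of all tested genes were lower and 11.5% higher. The median change of the 40 was -0.58, against 0.00794 over all tested genes. In 37 of the 40, every PBSL plus IL-1β library lay below every IL-1β library, as it did for 20.1% of all tested genes, and the groups overlapped in IFIT2, HERC5 and TRIM21. Of the 10 other tested genes, whose passing of the filter rested on the stimulated groups, 6 were called lower, and the groups overlapped in MX1, RSAD2 and CMPK2. The 10 of 50 genes not called were IFIT2, IFIT5, GBP3, RSAD2, CMPK2, HERC5, TRIM21, DTX3L, ISG20 and RTP4. Of the 40 genes 6 at least halved on the scale with 1 added. The number of the 50 called lower was 40 with all libraries and 29 to 44 when single libraries were left out. It was 29 without IL-1β 1 or IL-1β 3, 32 without PBSL 2 and 44 without PBSL 1. The calls over all tested genes, in either direction, moved the same way. They were 2684 with all libraries, 1448 without IL-1β 1, 1360 without IL-1β 3, 1436 without PBSL 2 and 3904 without PBSL 1. Of the 40 member calls, 27 held in every fit that left out 1 library.

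**Figure D1:**
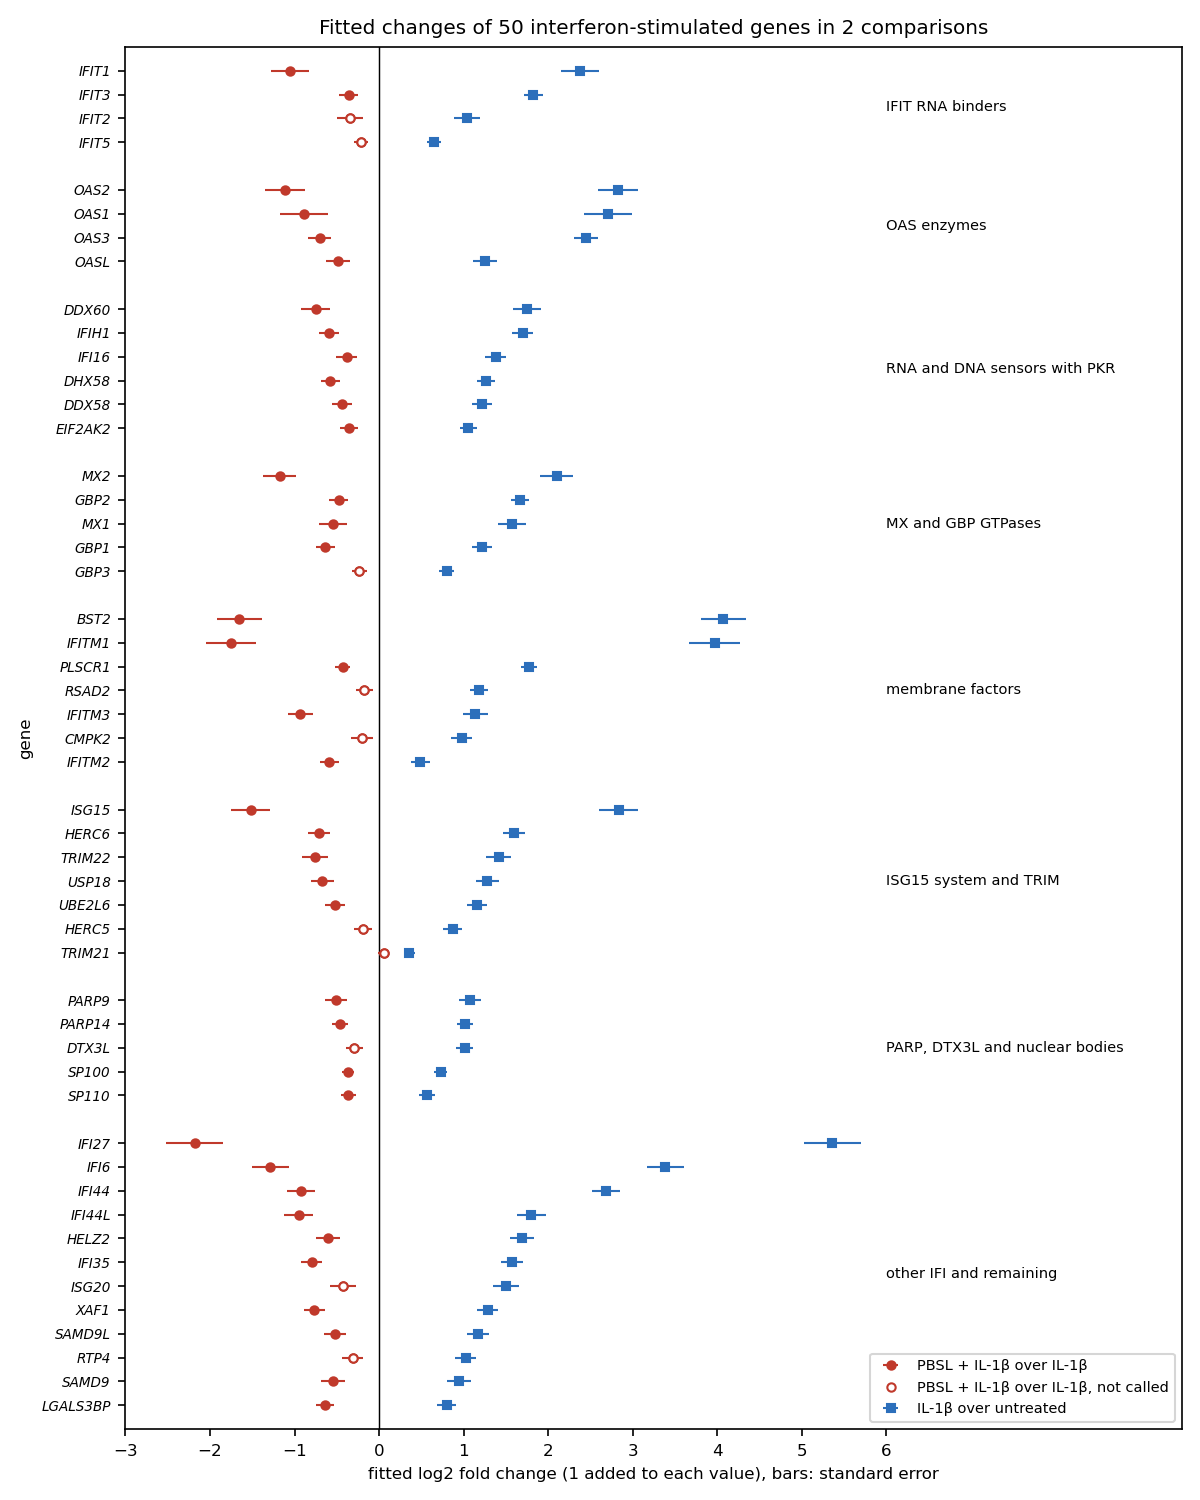
Fitted log2 fold changes (x axis, 1 added to each value) of the 50 tested genes (y axis, grouped by role), for PBSL plus IL-1β over IL-1β (red circles, open where not called) and IL-1β over untreated (blue squares), with standard errors as bars. All blue squares lie right of 0, from 0.36 in TRIM21 to 5.36 in IFI27, and the red circles lie left of 0 in all but TRIM21, at 0.05.

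**Figure D2:**
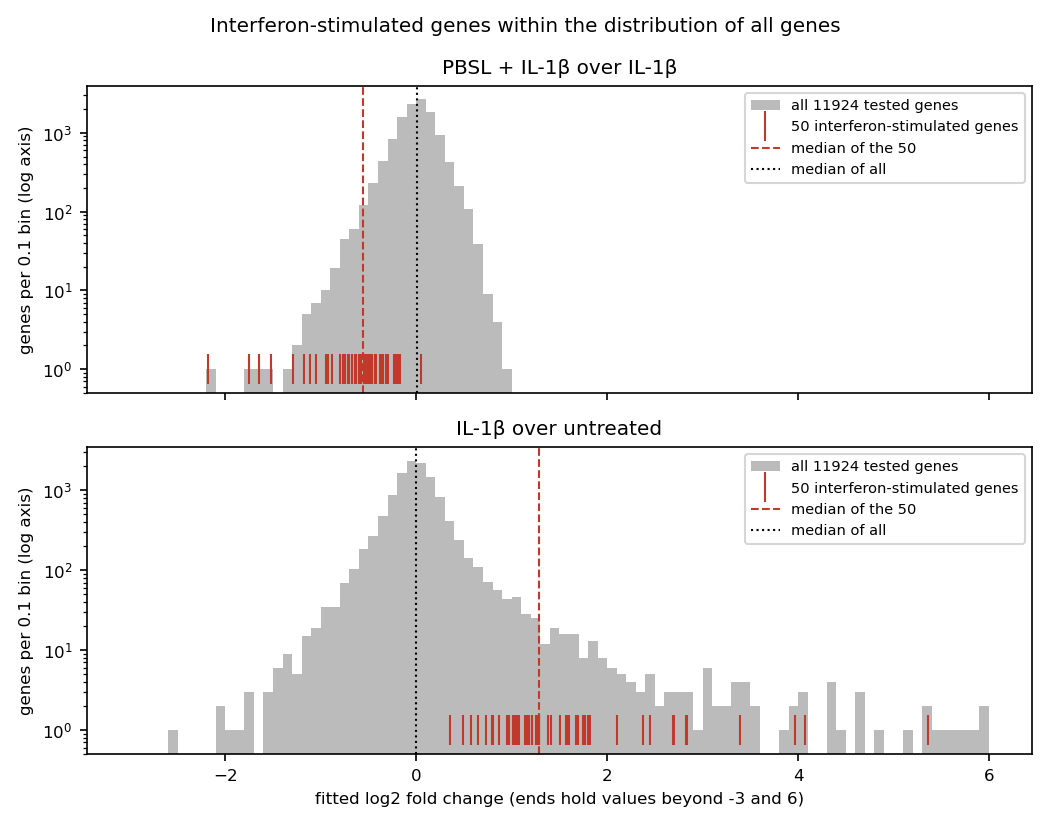
Number of genes per bin of fitted log2 fold change (grey, log axis) for all 11924 tested genes, with the 50 interferon-stimulated genes as red marks, their median as a dashed red line and the median of all genes as a dotted line. The 50 include the 10 that passed the filter through the groups in which they are high. The upper panel is PBSL plus IL-1β over IL-1β, with medians of -0.56 and 0.00794, and the lower panel is IL-1β over untreated, with medians of 1.29 and -0.00491.

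The IFIT genes, neighbours on chromosome 10 (hg38, IFIT2 to IFIT5), encode proteins that bind viral RNA ends and block translation. All 4 rose with IL-1β, and with PBSL before it 2 of the 4 fell. IFIT1, which binds RNA lacking a methylated cap, lay at 44.3, 17.7 and 27.6 with PBSL and IL-1β, 57.1, 54.5 and 66.2 with IL-1β, and 10.6, 10.4 and 10.7 in untreated cells. The 3 groups did not overlap, and PBSL 2 lay nearest to the untreated libraries. Its log2 change was 2.38 for IL-1β over untreated (SE 0.226, adjusted p = 8e-06) and -1.05 for PBSL plus IL-1β over IL-1β (SE 0.226, adjusted p = 0.00885). IFIT3, which stabilises IFIT1 on RNA, lay at 30.9, 20.7 and 27.4 with PBSL and IL-1β, 32.6, 33.1 and 35.2 with IL-1β, and 8.45, 8.98 and 8.86 in untreated cells. PBSL 1 came close to the lowest IL-1β library. Its changes were 1.82 (SE 0.110, adjusted p = 1.56e-07) and -0.36 (SE 0.110, adjusted p = 0.037), and the second was no longer called without untreated 2, without any of the IL-1β libraries, or without PBSL 2 or PBSL 3 (adjusted p = 0.0537 to 0.115). IFIT2 lay at 4.66, 2.62 and 3.88 with PBSL and IL-1β, 4.32, 4.92 and 5.54 with IL-1β, and 1.66, 1.67 and 2.33 in untreated cells, so the stimulated groups overlapped. IFIT2 rose with IL-1β by 1.04 (adjusted p = 2.47e-04), and its difference of -0.35 with PBSL was not called (adjusted p = 0.121), though without PBSL 1 it was (0.0237). IFIT5 lay at 11.7, 9.46 and 11.1 with PBSL and IL-1β, 12.8, 12.8 and 12.2 with IL-1β, and 7.01, 7.90 and 8.12 in untreated cells. It rose with IL-1β by 0.65 (adjusted p = 6.91e-05), and the difference of -0.21 with PBSL was not called (adjusted p = 0.0746) except without PBSL 1 (0.0255).

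The OAS enzymes make 2′-5′-linked oligoadenylates on double-stranded RNA, which activate RNase L, and OASL is a relative without that activity that supports RIG-I. OAS1, OAS3 and OAS2 lie side by side on chromosome 12. The 4 genes had the highest median rise of the 8 role groups, 2.58 on the log2 scale, and all 4 fell with PBSL, with a median of -0.79. OASL among them passed the filter through the stimulated groups, which partly fixed its rise. OAS2 lay at 19.3, 6.996 and 11.9 with PBSL and IL-1β, 27.6, 24.8 and 27.8 with IL-1β, and 2.56, 2.92 and 3.26 in untreated cells. Its groups did not overlap, and the PBSL libraries differed among themselves more than the libraries of either other group. Its changes were 2.83 (SE 0.240, adjusted p = 3.14e-06) and -1.11 (SE 0.240, adjusted p = 0.00887). OAS1 lay at 29.8, 9.77 and 16.1 with PBSL and IL-1β, 32.0, 31.0 and 32.8 with IL-1β, and 5.14, 2.94 and 4.34 in untreated cells. PBSL 1 was almost at the IL-1β level, while PBSL 2 was nearer to the untreated cells. The changes of OAS1 were 2.70 (SE 0.285, adjusted p = 1.94e-05) and -0.89 (SE 0.285, adjusted p = 0.0448), and the second call was lost without untreated 2 or 3, without any IL-1β library, or without PBSL 2 or 3 (adjusted p = 0.0515 to 0.149). OAS3, the longest of the enzymes, lay at 34.3, 20.02 and 26.1 with PBSL and IL-1β, 44.1, 41.4 and 44.1 with IL-1β, and 6.93, 7.07 and 7.28 in untreated cells. It rose by 2.45 (SE 0.137, adjusted p = 8.53e-08) and fell by 0.70 with PBSL (SE 0.137, adjusted p = 0.00592), with no overlap between groups. OASL, at low values, lay at 1.47, 0.657 and 0.674 with PBSL and IL-1β, 1.48, 1.61 and 1.92 with IL-1β, and 0.128, 0.06 and 0.174 in untreated cells. PBSL 1 was just under the lowest IL-1β library. Its changes were 1.25 (adjusted p = 3.77e-05) and -0.49 (adjusted p = 0.0306), the second not called without any 1 of the IL-1β libraries, PBSL 2 or PBSL 3 (adjusted p = 0.0559 to 0.117). Its rise was 3.03 when 0.1 was added in place of 1.

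The sensors recognise foreign nucleic acid in the cell. DDX58 (RIG-I), IFIH1 (MDA5) and DHX58 (LGP2) bind viral RNA, DDX60 is a related helicase, EIF2AK2 (PKR) halts translation on double-stranded RNA and IFI16 binds DNA. All 6 rose with IL-1β by between 1.06 and 1.75 on the log2 scale, and all 6 fell with PBSL, by between 0.36 and 0.75. DDX60 lay at 7.48, 3.96 and 6.25 with PBSL and IL-1β, 10.1, 10.4 and 10.5 with IL-1β, and 2.13, 3.10 and 1.97 in untreated cells. Its changes were 1.75 (SE 0.169, adjusted p = 9.14e-06) and -0.75 (SE 0.169, adjusted p = 0.0107). Its 3 groups were separate, with PBSL 2 the closest to untreated cells. IFIH1 lay at 6.64, 4.37 and 6.13 with PBSL and IL-1β, 8.41, 8.44 and 10.3 with IL-1β, and 1.89, 2.12 and 2.26 in untreated cells. Its changes were 1.70 (SE 0.124, adjusted p = 8.16e-07) and -0.59 (SE 0.124, adjusted p = 0.00782). DHX58 showed the same order of groups, at 3.26, 2.14 and 2.53 with PBSL and IL-1β, 4.65, 3.88 and 4.65 with IL-1β, and 1.24, 1.18 and 1.28 in untreated cells. It rose by 1.27 (adjusted p = 3.34e-06) and fell by 0.57 with PBSL (adjusted p = 0.00519). IFI16 was the most abundant of the 6, at 56.4, 34.9 and 42.9 with PBSL and IL-1β, 57.5, 57.5 and 57.4 with IL-1β, and 21.6, 21.7 and 21.1 in untreated cells. PBSL 1 lay just below the 3 IL-1β libraries, which were nearly equal. The rise of IFI16 was 1.38 (adjusted p = 4.9e-06) and its fall 0.38, a log2 change of -0.38 (adjusted p = 0.0456). That fall was called in the fit to all libraries and in the fit without PBSL 1, and in none of the 8 fits that left out another library (adjusted p = 0.0595 to 0.135). DDX58 rose by 1.22 and changed by -0.44 with PBSL (adjusted p = 0.0203), a call lost without IL-1β 1 or IL-1β 3 (adjusted p = 0.0625 to 0.0673). EIF2AK2 rose by 1.06 and changed by -0.36 (adjusted p = 0.0287), a call lost without any 1 IL-1β library or without PBSL 2 (adjusted p = 0.0642 to 0.101).

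The MX and GBP genes encode large GTPases that assemble on viral particles and pathogen compartments. MX1 and MX2 are neighbours on chromosome 21 and the GBP genes cluster on chromosome 1, and reads from such relatives can be hard to assign. All 5 tested genes of this group rose with IL-1β, and 4 of the 5 fell with PBSL. MX1 and MX2 passed the filter through the stimulated groups, which partly fixed their rise. MX2, which restricts retroviruses at the nuclear pore, lay at 4.87, 1.96 and 3.00 with PBSL and IL-1β, 7.76, 7.99 and 9.18 with IL-1β, and 1.43, 0.847 and 1.25 in untreated cells. Its groups did not overlap, and its changes were 2.10 (SE 0.196, adjusted p = 6.78e-06) and -1.18 (SE 0.196, adjusted p = 0.00399). MX1, which blocks influenza viruses, lay at 3.79, 2.04 and 2.03 with PBSL and IL-1β, 3.73, 3.72 and 5.12 with IL-1β, and 0.621, 0.864 and 0.711 in untreated cells. PBSL 1 lay above 2 of the IL-1β libraries. The changes of MX1 were 1.57 (SE 0.166, adjusted p = 1.96e-05) and -0.54 (SE 0.166, adjusted p = 0.0365), and the second was not called without untreated 2, any IL-1β library, PBSL 2 or PBSL 3 (adjusted p = 0.0503 to 0.137). GBP2 lay at 14.5, 10.1 and 11.6 with PBSL and IL-1β, 16.0, 17.0 and 18.1 with IL-1β, and 4.29, 4.49 and 5.24 in untreated cells. Its changes were 1.67 (SE 0.110, adjusted p = 3.48e-07) and -0.48 (SE 0.110, adjusted p = 0.0119), the second at an adjusted p of 0.0504 without IL-1β 3. GBP1, which coats cytosolic bacteria, was the most abundant of the group. It lay at 32.6, 21.2 and 27.5 with PBSL and IL-1β, 41.6, 41.2 and 43.1 with IL-1β, and 18.7, 17.1 and 16.7 in untreated cells, changing by 1.22 (adjusted p = 7.77e-06) and -0.63 (adjusted p = 0.00475). GBP3 rose by 0.80 (adjusted p = 2.75e-05), and its difference of -0.23 with PBSL was not called (adjusted p = 0.0753) except without PBSL 1 (0.0385).

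In the membrane group, some proteins act where virions enter or leave, and RSAD2 and CMPK2 are placed with them. IFITM1, IFITM2 and IFITM3 stiffen membranes against fusion, BST2 (tetherin) holds budding virions at the surface, RSAD2 (viperin) makes a chain-terminating nucleotide, CMPK2 lies beside RSAD2 in the genome and is a mitochondrial nucleotide kinase, and PLSCR1 is a lipid scramblase. All 7 rose with IL-1β and 5 fell with PBSL. BST2, RSAD2 and CMPK2 among them passed the filter through the stimulated groups, which partly fixed their rise. BST2 on chromosome 19 lay at 16.5, 5.41 and 8.98 with PBSL and IL-1β, 36.3, 26.7 and 32.5 with IL-1β, and 1.11, 0.83 and 0.882 in untreated cells. Its changes were 4.07 (SE 0.265, adjusted p = 3.02e-07) and -1.65 (SE 0.265, adjusted p = 0.0036). The groups were far apart on this scale, and the rise was 4.94 with 0.1 added and 2.62 with 5 added in place of 1. IFITM1 lay at 35.4, 11.3 and 18.5 with PBSL and IL-1β, 73.7, 63.6 and 68.6 with IL-1β, and 2.73, 2.93 and 4.93 in untreated cells. Its changes were 3.97 (SE 0.299, adjusted p = 1.1e-06) and -1.75 (SE 0.299, adjusted p = 0.00405). IFITM3, many times more abundant than IFITM1 in untreated cells, lay at 312, 185 and 215 with PBSL and IL-1β, 459, 420.4 and 446 with IL-1β, and 192, 189 and 219 in untreated cells. PBSL 2 was below all 3 untreated libraries. IFITM3 rose by 1.14 (SE 0.145, adjusted p = 8.59e-05) and changed by -0.93 with PBSL (SE 0.145, adjusted p = 0.00337). IFITM2 lay at 101, 71.3 and 90.2 with PBSL and IL-1β, 132, 118 and 144 with IL-1β, and 91.8, 87.3 and 100.03 in untreated cells. It rose by 0.49 (SE 0.113, adjusted p = 0.00576) and changed by -0.59 with PBSL (SE 0.113, adjusted p = 0.00556).

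These 3 IFITM genes are near-identical in part, and IFITM1 (hg38, chromosome 11, 313506 to 315272) lies inside the annotated extent of IFITM2 (307631 to 315272), so how the authors' counting divided their reads is uncertain. PLSCR1 lay at 26.6, 20.3 and 25.6 with PBSL and IL-1β, 32.9, 30.8 and 34.5 with IL-1β, and 9.13, 9.19 and 8.31 in untreated cells. It rose by 1.77 (SE 0.0910, adjusted p = 4.22e-08) and changed by -0.43 with PBSL (adjusted p = 0.00829). All 3 of its PBSL libraries stayed far above the untreated ones. RSAD2 lay at 1.41, 0.881 and 1.16 with PBSL and IL-1β, 1.49, 1.28 and 1.47 with IL-1β, and 0.046, 0.016 and 0.127 in untreated cells. It rose by 1.19 (adjusted p = 3.97e-06), or by 3.27 with 0.1 added in place of 1, and the difference of -0.17 with PBSL was not called (adjusted p = 0.243). CMPK2, whose annotated extent overlaps that of RSAD2 on the other strand, rose by 0.98 (adjusted p = 9.89e-05) and was not called with PBSL, at -0.20 (adjusted p = 0.274). Whether the counting used strand is not stated, so reads from the overlap cannot be divided between the 2 genes.

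**Figure D3:**
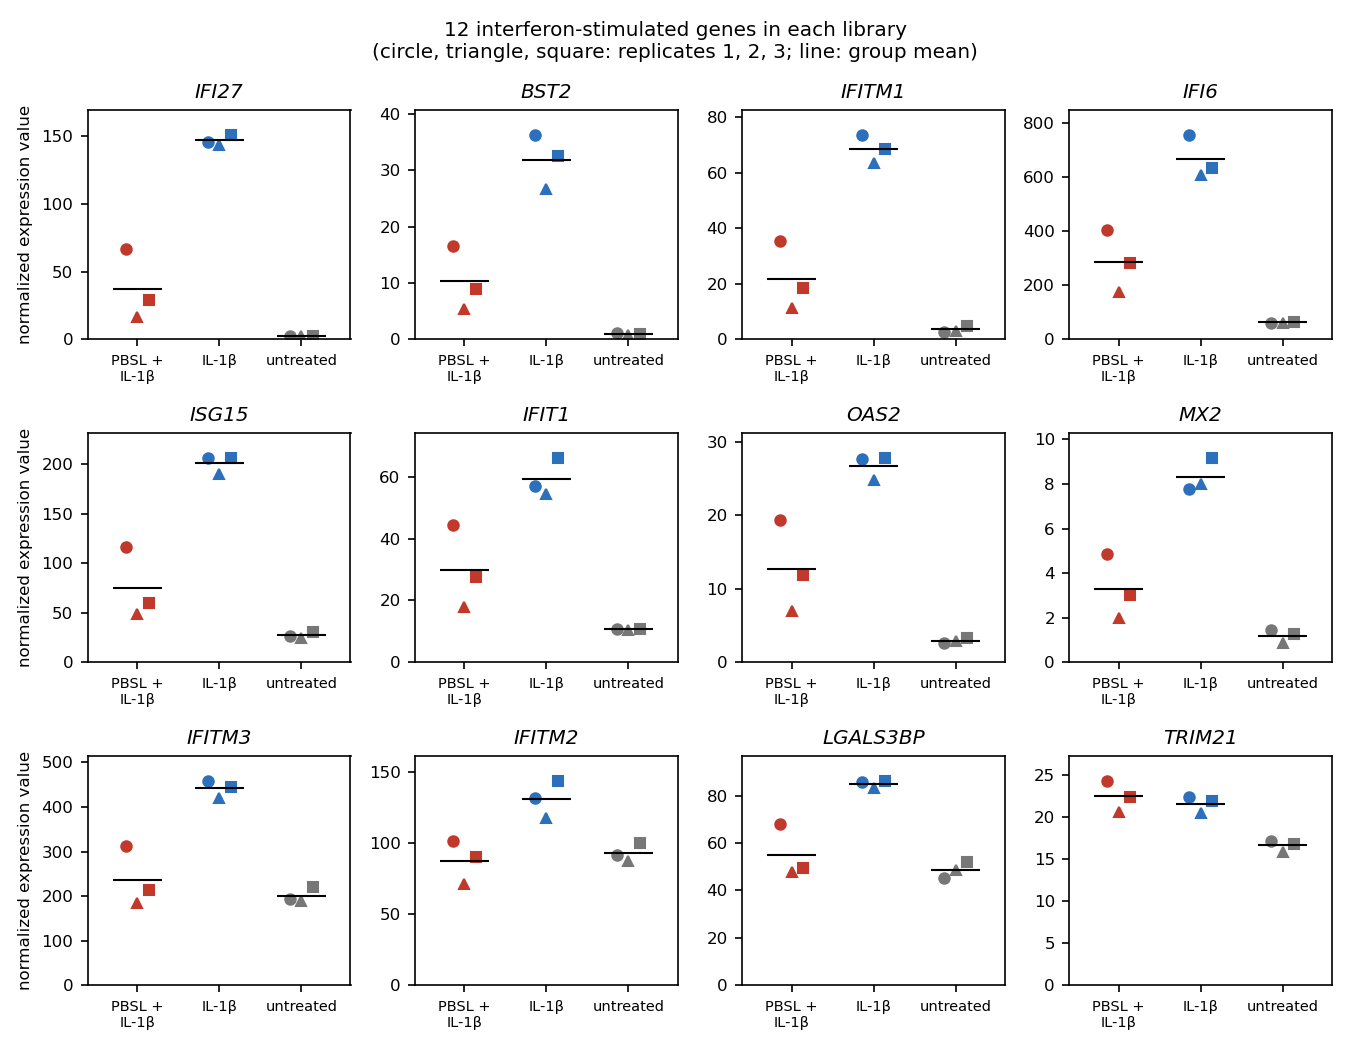
Deposited normalized values (y axis, from 0) of 12 genes in each library of the PBSL plus IL-1β, IL-1β and untreated groups, with circles, triangles and squares for replicates 1, 2 and 3 and a line for the group mean. PBSL replicate 1 is the highest of its group in each panel. In the IFITM2, IFITM3 and LGALS3BP panels the PBSL plus IL-1β group overlaps the untreated one, and in the TRIM21 panel it overlaps the IL-1β group.

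ISG15 is a ubiquitin-like protein that is joined to other proteins by UBE2L6 and HERC5 and removed by USP18. HERC6 is a relative of HERC5, and TRIM21 and TRIM22 are ubiquitin ligases with antiviral roles. All 7 of this group rose with IL-1β and 5 fell with PBSL. ISG15 on chromosome 1 lay at 116, 48.6 and 59.4 with PBSL and IL-1β, 206, 190.4 and 207 with IL-1β, and 26.6, 24.9 and 30.7 in untreated cells. Its groups did not overlap, and the mean with PBSL and IL-1β was 74.7 ± 36.3 (SD, n = 3), against 201 ± 9.31 with IL-1β. Its changes were 2.84 (SE 0.231, adjusted p = 2.18e-06) and -1.52 (SE 0.231, adjusted p = 0.00315). USP18, which also dampens interferon receptor signalling, lay at 4.92, 2.64 and 3.20 with PBSL and IL-1β, 5.81, 6.12 and 6.51 with IL-1β, and 1.88, 1.95 and 1.97 in untreated cells. It rose by 1.28 (SE 0.139, adjusted p = 2.48e-05) and changed by -0.67 with PBSL (SE 0.139, adjusted p = 0.00775). Among the enzymes that join ISG15, UBE2L6 moved in the same direction as USP18 in these libraries. UBE2L6 rose by 1.16 (adjusted p = 1.4e-05) and changed by -0.52 with PBSL (adjusted p = 0.0108). HERC5 rose by 0.87 (adjusted p = 8.73e-05), while its PBSL values of 5.36, 4.09 and 5.87 overlapped the IL-1β values of 5.34, 6.70 and 5.75 (log2 change -0.19, adjusted p = 0.24). HERC6 lay at 10.5, 6.58 and 8.77 with PBSL and IL-1β, 15.3, 12.8 and 15.7 with IL-1β, and 4.25, 3.85 and 4.30 in untreated cells, with changes of 1.60 (adjusted p = 2.01e-06) and -0.71 (adjusted p = 0.0045). TRIM22 lay at 8.25, 4.48 and 6.72 with PBSL and IL-1β, 11.4, 11.4 and 11.3 with IL-1β, and 3.22, 3.56 and 4.17 in untreated cells, with changes of 1.41 (adjusted p = 2.05e-05) and -0.76 (adjusted p = 0.00633).

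TRIM21 was the only gene of the 50 with a fitted difference above 0 with PBSL, and that difference was not called. It lay at 24.3, 20.6 and 22.4 with PBSL and IL-1β, 22.3, 20.5 and 21.9 with IL-1β, and 17.2, 15.9 and 16.8 in untreated cells. Both stimulated groups lay above the untreated one and overlapped each other. It rose with IL-1β by 0.36 (SE 0.0675, adjusted p = 0.00159), and the difference with PBSL was 0.05 (SE 0.0675, adjusted p = 0.604), or -0.00338 without PBSL 1.

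PARP9 and DTX3L form a complex that marks histones and viral proteins, PARP14 is a related ADP-ribosyltransferase, and SP100 and SP110 are proteins of nuclear bodies. All 5 rose with IL-1β, with a median of 1.01, and 4 fell with PBSL, with a median of -0.37. PARP9 lay at 21.7, 13.1 and 17.9 with PBSL and IL-1β, 24.6, 23.8 and 26.5 with IL-1β, and 10.8, 11.2 and 11.8 in untreated cells. It rose by 1.08 (SE 0.130, adjusted p = 5.95e-05) and changed by -0.51 with PBSL (SE 0.130, adjusted p = 0.0184), a call lost without IL-1β 1 or IL-1β 3 (adjusted p = 0.0509 to 0.0672). DTX3L, its head-to-head neighbour on chromosome 3, lay at 13.1, 9.64 and 13.0 with PBSL and IL-1β, 14.3, 14.4 and 15.3 with IL-1β, and 6.16, 7.28 and 6.87 in untreated cells. It rose by 1.01 (adjusted p = 1.24e-05). All 3 PBSL libraries of DTX3L lay under the IL-1β libraries, but the difference of -0.29 was not called (adjusted p = 0.0585) except without PBSL 1 (0.0236) and under 4 other settings. PARP14 lay at 10.9, 8.10 and 10.6 with PBSL and IL-1β, 14.01, 13.5 and 13.9 with IL-1β, and 5.79, 6.82 and 6.41 in untreated cells. It rose by 1.01 (adjusted p = 7.61e-06) and changed by -0.46 with PBSL (adjusted p = 0.00783). SP100 lay at 44.4, 35.4 and 39.3 with PBSL and IL-1β, 52.5, 50.2 and 51.1 with IL-1β, and 30.7, 31.8 and 29.2 in untreated cells, with smaller changes of 0.73 (adjusted p = 1.34e-05) and -0.37 (adjusted p = 0.00662). SP110 rose by 0.57 (adjusted p = 5.06e-04) and changed by -0.36 with PBSL (adjusted p = 0.017), a call lost without IL-1β 1, IL-1β 2 or PBSL 2 (adjusted p = 0.0506 to 0.0705).

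The remaining 13 genes include IFI27, which had the largest rise and the largest fall of the 50. IFI27 and IFI6 are small mitochondrial proteins, IFI44 and IFI44L are neighbouring cytosolic genes on chromosome 1, ISG20 is an RNA exonuclease, XAF1 is a pro-apoptotic protein, and SAMD9 and SAMD9L restrict poxviruses. Of the 12 tested, 12 rose with IL-1β and 10 fell with PBSL. IFI44L, ISG20, XAF1 and RTP4 passed the filter through the stimulated groups, which partly fixed their rise. IFI27 (hg38, chromosome 14, 94104836 to 94116698) lay at 66.5, 16.2 and 28.7 with PBSL and IL-1β, 146, 144 and 151 with IL-1β, and 2.73, 2.48 and 2.58 in untreated cells. Its 3 groups were far apart, with a 4-fold span inside the PBSL group alone. Its changes were 5.36 (SE 0.340, adjusted p = 2.42e-07) and -2.18 (SE 0.340, adjusted p = 0.00337), and the rise was 4.32 with 5 added in place of 1. IFI6 was the most abundant member with IL-1β. It lay at 406, 173 and 284 with PBSL and IL-1β, 758, 608 and 636 with IL-1β, and 61.8, 61.0 and 65.0 in untreated cells. It changed by 3.39 (SE 0.220, adjusted p = 2.98e-07) and -1.29 (SE 0.220, adjusted p = 0.00405). IFI44 lay at 10.9, 5.48 and 7.08 with PBSL and IL-1β, 15.9, 13.99 and 15.8 with IL-1β, and 1.59, 1.59 and 1.39 in untreated cells. Its changes were 2.69 (SE 0.166, adjusted p = 2.02e-07) and -0.92 (SE 0.166, adjusted p = 0.0045). IFI44L lay lower throughout, at 1.85, 0.533 and 1.06 with PBSL and IL-1β, 2.82, 3.01 and 3.25 with IL-1β, and 0.084, 0.177 and 0.205 in untreated cells. Its changes were 1.80 (SE 0.173, adjusted p = 8.54e-06) and -0.95 (SE 0.173, adjusted p = 0.00467), and the rise was 3.64 with 0.1 added in place of 1.

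IFI35, a leucine-zipper protein, rose by 1.57 and changed by -0.80 with PBSL (adjusted p = 0.0036). XAF1 was near 0 in untreated cells (0.034, 0 and 0.012), lay at 1.57, 1.32 and 1.55 with IL-1β and at 0.757, 0.197 and 0.467 with PBSL before it. The fall of XAF1 with PBSL was 0.77, a log2 change of -0.77 (adjusted p = 0.00381), or -1.59 with 0.1 added in place of 1. LGALS3BP, a secreted glycoprotein, lay at 68.2, 47.7 and 49.4 with PBSL and IL-1β, 85.9, 83.3 and 86.5 with IL-1β, and 45.1, 48.6 and 52.2 in untreated cells. It rose by 0.80 (adjusted p = 1.58e-04) and changed by -0.64 with PBSL (adjusted p = 0.00408), with PBSL 2 and PBSL 3 inside the untreated range. HELZ2, a helicase-like coactivator, rose by 1.70 and changed by -0.60 (adjusted p = 0.0135), a call lost without PBSL 2 or PBSL 3 (adjusted p = 0.0527 to 0.0564). SAMD9 rose by 0.95 and changed by -0.55 (adjusted p = 0.019), a call lost without any 1 IL-1β library (adjusted p = 0.0526 to 0.0615). SAMD9L rose by 1.18 and changed by -0.52 (adjusted p = 0.0175), a call lost without IL-1β 1 or IL-1β 3 (adjusted p = 0.0566 to 0.0588). ISG20 and RTP4, a receptor-trafficking protein, rose by 1.501 and 1.03, and were not called with PBSL, at -0.42 (adjusted p = 0.0709) and -0.31 (adjusted p = 0.0898).

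PBSL plus IL-1β against untreated cells asked how much of the IL-1β response was left. Most members stayed above their untreated level. Of the 40 at 1 or more in every untreated library, 36 were called higher, where 22.3% of all tested genes were, and their median change was 0.71, against 0.0311 over all tested genes. All 3 PBSL plus IL-1β libraries lay above all 3 untreated libraries in 35 of the 40, as they did for 26.0% of all tested genes. The other 10 tested genes were called higher and separated too, which the filter partly fixed. IFI27 remained the furthest above, by 3.18 (SE 0.340, adjusted p = 1.98e-05), followed by BST2 at 2.42 (adjusted p = 2.4e-05) and IFITM1 at 2.22 (adjusted p = 1.25e-04). IFIT3 and PLSCR1 stayed higher by 1.47 and 1.34 (adjusted p = 1.08e-06 and 4.89e-07).

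The 4 members not called in this comparison were IFITM2 at -0.10 (SE 0.113, adjusted p = 0.515), IFITM3 at 0.21 (SE 0.145, adjusted p = 0.27), SP110 at 0.21 (SE 0.0915, adjusted p = 0.0906) and LGALS3BP at 0.16 (SE 0.110, adjusted p = 0.265). A p above the threshold does not show that these genes were back at the untreated level. IFITM3 was called without PBSL 2 (adjusted p = 0.0458), as was SP110 (0.0119). SAMD9 overlapped the untreated group through PBSL 2, and its call at 0.40 (adjusted p = 0.039) was lost in 8 of 9 fits that left out a library, all but the one without PBSL 2 (adjusted p = 0.0518 to 0.125).

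The PBSL libraries kept 1 order across nearly the whole gene set. PBSL 2 was the lowest of its group in 49 of the 50 members and PBSL 1 the highest in 46. Set against the IL-1β group mean, the median member had a log2 difference of -0.32 in PBSL 1, of -0.86 in PBSL 2, and of -0.60 in PBSL 3. The IL-1β libraries spread between -0.05 and 0.04 by the same measure, and the untreated libraries between -1.32 and -1.27. In PBSL 1 no member lay at or below the highest untreated library, in PBSL 2 there were 5 (IFITM2, IFITM3, SP110, SAMD9 and LGALS3BP), and in PBSL 3 there were 3 (IFITM2, IFITM3 and LGALS3BP). Among all 1314 genes called lower with PBSL, which include the members called lower, PBSL 1 was the highest in 83.0%. PBSL 2 was the lowest in 56.5% of them and PBSL 3 in 39.7%, so the order was less uniform there. These genes were picked for low values with PBSL, and the order over all tested genes was not counted. These libraries share 1 label, and the part of dose, timing or handling in their spread was not tested.

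**Figure D4:**
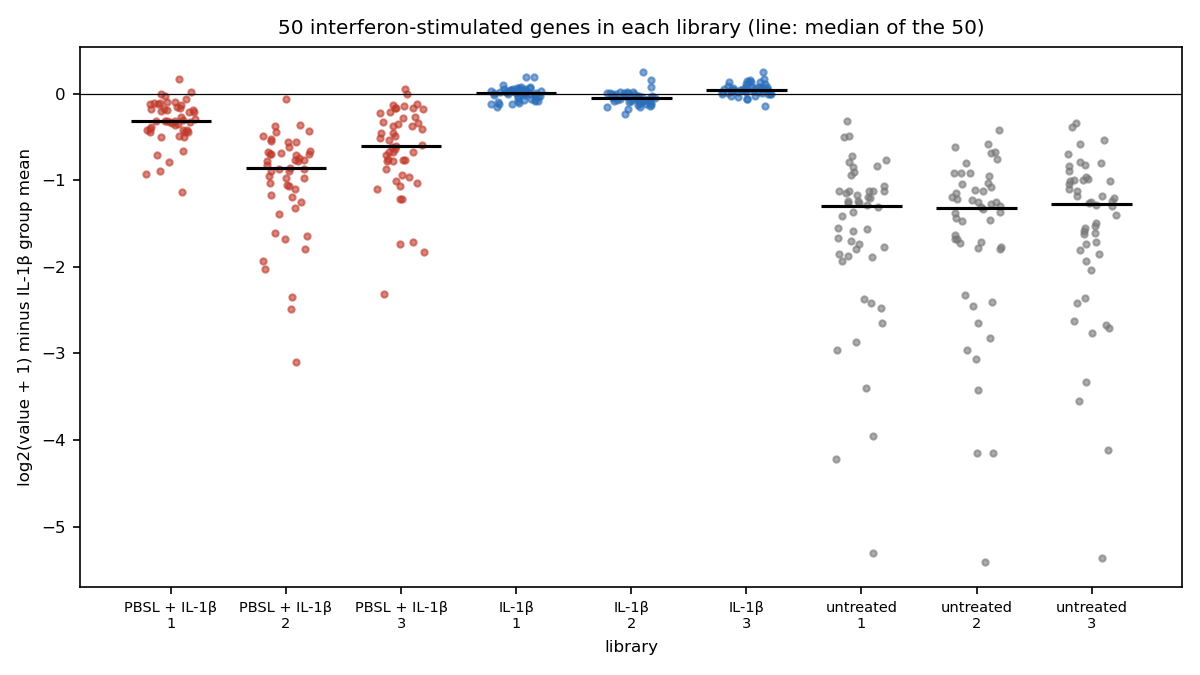
Difference of log2(value + 1) from the mean of the IL-1β libraries (y axis) for each of the 50 tested genes (points) in each library (x axis), with a line at the median. The medians are -0.32, -0.86 and -0.60 in PBSL plus IL-1β libraries 1, 2 and 3, between -0.05 and 0.04 in the IL-1β libraries, and between -1.32 and -1.27 in the untreated libraries.

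The genes that make and carry the interferon signal were counted from a list of 35, of which 24 were tested. With IL-1β 17 of the 24 were called higher and 0 lower, where 16.2% of all tested genes were higher and 16.0% lower, and with PBSL before it 4 of the 24 were called lower and 0 higher, where 11.0% of all tested genes were lower and 11.5% higher. That count is near the share over all genes. Of the interferon genes, IFNB1, the type I interferon most cells make first, was listed at 0 in 8 libraries and at 0.062 in PBSL 3. IFNA1, IFNG, IFNL1, IFNL2 and IFNL3 were listed at 0 in all 9 libraries, and IFNA2 and IFNK at no more than 0.054. IFNE, a type I interferon of epithelia, was the 1 tested interferon gene, at 1.496, 1.42 and 1.45 with PBSL and IL-1β, 1.73, 2.20 and 1.75 with IL-1β, and 0.838, 0.986 and 1.26 in untreated cells. IFNE is among the 17, but it reached 1 in only 1 untreated library and passed the filter through the stimulated groups. It rose with IL-1β by 0.51 (adjusted p = 0.00175), which the filter partly fixed. The difference of -0.23 with PBSL was not called (adjusted p = 0.111). RNA was read once, after 20 h of IL-1β, so earlier levels of these genes were not measured.

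STAT2 and IRF9, which act together at the ISRE, moved with the members. STAT2 lay at 23.7, 18.4 and 19.9 with PBSL and IL-1β, 28.5, 29.4 and 30.4 with IL-1β, and 13.97, 15.5 and 16.6 in untreated cells. IRF9 lay at 33.0, 24.3 and 33.1 with PBSL and IL-1β, 43.7, 39.6 and 41.4 with IL-1β, and 13.0, 16.1 and 15.8 in untreated cells. In both, PBSL 2 was the lowest of its group and the groups did not overlap. STAT2 changed by 0.90 with IL-1β (adjusted p = 1.01e-05) and by -0.50 with PBSL (adjusted p = 0.00419), and IRF9 by 1.42 (adjusted p = 1.62e-06) and -0.46 (adjusted p = 0.0141). IRF1, a transcription factor that NF-κB induces, lay at 24.3, 22.8 and 25.3 with PBSL and IL-1β, 22.7, 22.9 and 24.2 with IL-1β, and 9.43, 8.98 and 9.83 in untreated cells. It rose by 1.22 (SE 0.0600, adjusted p = 3.04e-08), and its difference of 0.05 with PBSL was not called (SE 0.0600, adjusted p = 0.569). IKBKE, a kinase that activates interferon regulatory factors, rose by 1.46 (adjusted p = 3.32e-08), with a difference of -0.11 with PBSL (adjusted p = 0.307). TLR3, a receptor for double-stranded RNA, rose by 1.07 (adjusted p = 1.71e-05), with -0.13 with PBSL (adjusted p = 0.437). SOCS1, an inhibitor of JAK kinases, rose by 0.84 (adjusted p = 2.94e-06), with 0.20 with PBSL (adjusted p = 0.0632). IRF7, which amplifies interferon production in other cells, reached at most 0.1 in a library. JAK1 was also called lower with PBSL, at -0.16 (adjusted p = 0.0485). The count of pathway genes called in that comparison, in either direction, was 2 without IL-1β 1 and 7 without PBSL 1 (6 lower and 1 higher).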

How the data were processed

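RNA of SW1353 cells was read in 9 libraries. The table was deposited by the authors as signal values normalized for length and depth, and whether they are FPKM or TPM is not given in the sources used here. Across 1747 genes at 0 in 5 to 8 libraries, the lowest non-zero values fell with transcript length with a log-log slope of -1.02, as per-length values do. Trim Galore, STAR, HTSeq and hg38 are named in the submitters' processing notes, without versions. The libraries were made with a directional kit, per the labels' protocols. Read counts behind the values are unknown, so no count test, interval or floor is given.

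Groups come from the sample descriptions. Values were kept as deposited. A gene was tested at 1 or more in at least 3 libraries, 1 was added before log2, and limma 3.58.1 in R 4.3.3, with a variance trend, was fitted to all 9 libraries with 6 residual degrees of freedom. The fit uses 1 spread per gene for all 3 groups, though the PBSL libraries varied more. Fitted library weights, lower for noisier libraries, were 0.445 to 0.618 with PBSL, 1.75 to 2.08 with IL-1β and 0.865 to 1.28 in untreated cells. The PBSL p-values thus borrow the tighter spread of the other groups. Calls used a Benjamini-Hochberg adjusted p under 0.05 over all tested genes, 2-sided. The fit was checked on simulated data with 200 changed genes, drawn with 1 spread per gene for all groups and independent noise. That check cannot speak for a group that varies more, or for libraries whose genes shift together, as with PBSL. No replicate block was used.

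The members and the gene lists were chosen with earlier results of these data known. The up to 4 members of a role group with the largest summed changes are given in every library, members not called or going against the others are named, and other members named with values were chosen after their values were seen. Positions are from GENCODE 29, promoters from RefSeq (GRCh38.p14). Results on some other motifs and 1 pathway gene are not reported here. Alternatives were other pseudocounts, filters, scalings, fits, and leaving out each library. The table has 27 symbols turned into dates, none of them a member. Python 3.11.15, pandas 2.3.3, numpy 2.4.6 and matplotlib 3.10.9 made the tables and figures.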

Additional observations from a re-analysis of the deposited data

How the results depend on the processing

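In the alternatives that kept all 9 libraries, the 50 members tested were all called higher with IL-1β, apart from the stricter filter, which tested 40 and called 40; without a filter 51 of 52 were called, all but EPSTI1. With PBSL before IL-1β those alternatives called 31 to 41 members lower, and none higher. The fewest, 31 of 52, were called without a filter, where 10 members lost their call. These were DDX58, EIF2AK2, IFI16, IFIT3, MX1, OAS1, OASL, PARP9, SAMD9 and SAMD9L (limma adjusted p = 0.0531 to 0.116). A fit of only the 2 groups compared called 34 members lower with PBSL. It lost EIF2AK2, IFI16, IFIT3, MX1, OAS1 and OASL (limma adjusted p = 0.0546 to 0.0847). Leaving out 1 library gave 29 to 44 members lower with PBSL. Counted in either direction, it gave 1314 to 3904 of all tested genes and 2 to 7 pathway genes in that comparison. Against untreated cells it gave 45 to 48 members. Deviations of same-numbered libraries correlated at -0.225 to 0.0681, and 2 of 9 libraries correlated best with their own number, so the numbers were not taken to pair them. The model with the replicate block called 50, 40 and 46 members in the 3 comparisons. Against IL-1β the block lost MX1 (adjusted p = 0.0555) and gained RTP4 (0.0455), and it called 2131 of all tested genes in either direction in place of 2684. XAF1 was no longer called above untreated cells after quantile normalization (adjusted p = 0.0845). Uncalled members turned sign without 1 library. Over the fits that left out a library, PBSL plus IL-1β over untreated was -0.21 to 0.0413 for IFITM2 (positive without PBSL 2), -0.00569 to 0.37 for IFITM3 and -0.000194 to 0.25 for LGALS3BP (both negative without PBSL 1). TRIM21 against IL-1β was -0.00338 (without PBSL 1) to 0.11. The cause was not tested. Fold changes moved by over 1.5 times only with other pseudocounts, with 0.1 in 8 members and with 5 in 19 for IL-1β over untreated. A count model was not run because the values are not counts. The fold changes of members under 1 in untreated cells depend on the added constant. So do those of some members at 1 or more in every untreated library, among them IFI27, IFITM1, OAS2 and IFI44 with 5 added. Having 3 libraries a group limits what can be called.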
